A study of Saccharomyces cerevisiae with 5 samples.

Results

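Sulfur supply in budding yeast is controlled by a small set of proteins, and the 6 genes that encode them are described here: MET4 (YNL103W), CBF1 (YJR060W), MET28 (YIR017C), MET31 (YPL038W), MET32 (YDR253C) and MET30 (YIL046W). They were taken by gene symbol from the 5379 genes that the array's probes name, all 6 were found, and each had 1 probe. Saccharomyces cerevisiae S288C, a haploid laboratory strain, grew at 25 °C in the rich medium YPD, made with 1% yeast extract, 2% glucose and 2% polypeptone, to an optical density of 1. Treated cultures then received copper(II) sulfate to a final concentration of 10 mM for 2 h, and untreated control cultures grew on for 2 h with nothing added. PolyA RNA of treated cells was labelled with Cy5-dUTP and that of untreated cells with Cy3-dUTP, and both were hybridised together on each of 3 arrays of 2 colours, described as independent biological samples.

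Met4 is a leucine-zipper activator that switches on the genes for sulfate uptake, methionine and cysteine synthesis. It does not bind DNA well by itself and is brought to promoters by Cbf1, a helix-loop-helix protein, or by the related zinc-finger proteins Met31 and Met32, with Met28, another leucine-zipper protein, stabilising these complexes. Met30 is the F-box protein through which the SCF ubiquitin ligase marks Met4 and so restrains it. When sulfur runs short, or when cells meet cadmium, this restraint is lifted. Met4 in turn activates the genes of its own partners and of its restrainer, MET28, MET32 and MET30. Much of this control acts on the proteins, whereas the arrays measured only their mRNA.

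Every value below is a log2 ratio of copper-treated over untreated cells, so that 1 stands for a doubling and 0 for no difference. The deposited table does not state the direction. Treated over untreated is the likely one, because the labels list the treated channel first, and it places CUP1-1, a copper metallothionein gene, at 4.33 ± 1.53 and FRE1, a surface reductase gene of copper uptake, at -3.73 ± 0.36 (SD, n = 3). Arrays 2 and 3 were scanned at high and at low laser power. Array 2 entered as the mean of both scans or as whichever held a value (the high-power scan for CBF1 and MET31), and array 3 as its high-power scan, since the series description sets the low-power data of that array aside. All arrays had the same dye orientation, so a dye bias of a gene and the effect of copper cannot be told apart, and whether each array had a control culture of its own is not stated, so a p-value reflects no more than how these arrays vary. The ratios of the arrays correlated with Pearson's r of 0.59 to 0.69 over genes, which share arrays and are not independent replicates. In a bulk culture, fewer cells holding a transcript and less of it per cell cannot be told apart.

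Of the 6 regulator genes, 1 rose past the threshold with copper, 0 fell, 3 did not pass the test and 2 could not be tested because array 2 held no value for them. MET30, the restrainer of Met4, was the gene that rose, by 1.42-fold. MET4, CBF1, MET28 and MET32 had positive ratios on every array that measured them, and MET31 had negative ones. The test was limma's moderated test of the mean ratio against 0 across 4824 genes with a value on all 3 arrays, two-sided, at an adjusted p (Benjamini-Hochberg) of 0.05. It called 23.5% of those genes in either direction and 11.5% upward, so 1 call among 4 tested regulators is not a result about the group. At an unadjusted limma p under 0.05, 3 of the 4 tested regulators were higher and 0 lower. Of all 4824 genes tested, 887 were higher and 1053 lower at that p. The median of the 4 tested regulators was 0.39, against -0.04 for all genes tested.

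**Figure D1:**
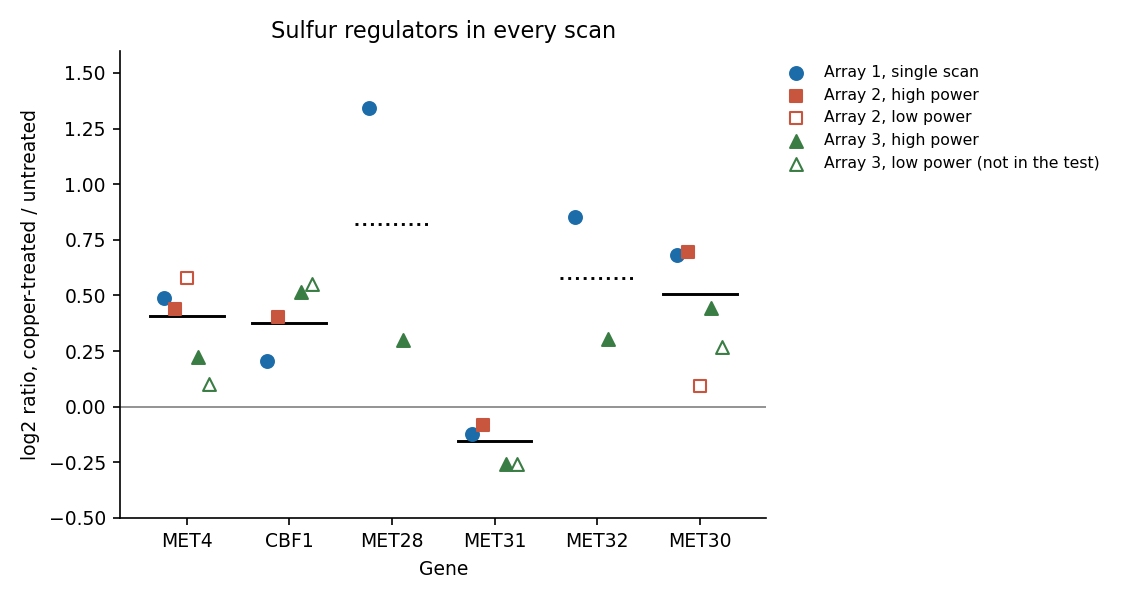
Log2 ratio of copper-treated over untreated cells (vertical axis) for the 6 regulator genes in each of 5 scans, with filled symbols for the single or high-power scan and open symbols for the low-power scan. Solid lines are means of 3 arrays and dotted lines means of the 2 arrays that held a value. MET31 lies below 0 in the 4 scans that held a value for it, the other genes lie above 0 wherever they held one (2 scans for MET28 and for MET32), and MET30 on array 2 spans 0.69 to 0.09 between scans.

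MET4, the activator itself, read 0.49, 0.51 and 0.22 on arrays 1, 2 and 3. All 3 arrays thus placed it above 0, with array 3 the lowest. Its mean of 0.41 ± 0.16 (SD, n = 3), or 1.33-fold, lay above the mean of 83.2% of tested genes and had a 95% interval of 0.07 to 0.75. In the limma fit the adjusted p was 0.0772, so MET4 did not pass the threshold. The scans of an array were close for this gene, with 0.44 at high and 0.58 at low power on array 2, and 0.22 and 0.10 on array 3. Its call depended on the setting, since MET4 passed when array 2 was read at low power only (adjusted p = 0.0461), with all 5 scans and the array as a random block (0.0484), with array weights (0.0349) and with ratios corrected for gene length (0.0496), in limma fits with Benjamini-Hochberg adjustment that ranged from 0.0349 to 0.397 over 13 alternatives.

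CBF1, which also serves at centromeres besides its role in bringing Met4 to promoters, read 0.21, 0.40 and 0.52. Array 3 was the highest here and the lowest for MET4. The mean was 0.38 ± 0.16 (SD, n = 3), 1.30-fold, with a 95% interval of 0.04 to 0.71 and an adjusted p of 0.0959 in the limma fit. CBF1 did not pass the threshold in any of the 11 alternatives that tested it, which gave means of 0.30 to 0.46 and adjusted p of 0.0654 to 0.265. Both scans of array 3 placed it alike, at 0.52 and 0.55.

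MET28, the gene of the stabilising leucine-zipper protein, read 1.34 on array 1 and 0.30 on array 3, and had no value in either scan of array 2. The ratio of array 1 was the largest that any of the 6 genes held and stood above 98.5% of genes on that array, whereas that of array 3 stood above 76.7%. The mean of the 2 arrays was 0.82 ± 0.74 (SD, n = 2), so the arrays differed by more than the mean itself. A fit that kept genes with values on at least 2 arrays, which the fit of 3 arrays leaves out, gave an adjusted p of 0.0791 (limma).

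MET31 and MET32 encode related zinc-finger proteins with overlapping roles, and their ratios had opposite signs. MET31 read -0.12, -0.08 and -0.26 on arrays 1, 2 and 3. These values are small and close together, as MET31 had a smaller SD than all but 10.1% of tested genes. Its mean was -0.16 ± 0.09 (SD, n = 3), with a 95% interval of -0.48 to 0.17 and an adjusted p of 0.450 in the limma fit, and it did not pass in any of 11 alternatives (adjusted p from 0.248 to 0.726). MET32 read 0.85 on array 1 and 0.31 on array 3, with no value on array 2. As with MET28, array 1 was the higher, above 94.5% of its genes, and array 3 the lower. The mean of 0.58 ± 0.39 (SD, n = 2) had an adjusted p of 0.0995 when genes with values on at least 2 arrays were fitted with limma. On the arrays that held both genes, MET32 exceeded MET31 by 0.97 and 0.56. How far each probe reads its own gene rather than the related copy was not tested, since probe sequences were not used here.

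MET30, the gene of the F-box protein, read 0.68, 0.39 and 0.44 on arrays 1, 2 and 3. All arrays stood above 0 and above 77.7% to 91.1% of their genes. The mean was 0.51 ± 0.16 (SD, n = 3), or 1.42-fold, with a 95% interval of 0.17 to 0.84, and ranked 598 of 4824 genes from the top. The adjusted p of 0.0423 in the limma fit was near the threshold. The value of array 2 joined 0.69 at high power and 0.09 at low power, a gap of 0.60 that was larger than in 97.8% of the 2671 genes with both scans, where the median absolute gap was 0.12. On array 3 the scans gave 0.44 and 0.27.

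The MET30 call was lost in 7 of 13 alternatives, although its mean stayed positive in all of them, at 0.41 to 0.61. It did not pass when array 2 was read at low power only (adjusted p = 0.0750 in the limma fit), with both scans averaged for array 3 (0.0514), with all 5 scans and the array as a random block (0.0767) or with genes valued on at least 2 arrays (0.0502). Leaving out an array gave means of 0.42 without replicate 1 (adjusted p = 0.322, limma), 0.56 without replicate 2 (0.0749) and 0.54 without replicate 3 (0.0613). In fits without replicate 1, here and below, all genes shared a single variance, so those p-values do not reflect the spread of each gene. With low power only for array 2 and with all 5 scans, the regulator past the threshold was MET4 in place of MET30.

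**Figure D2:**
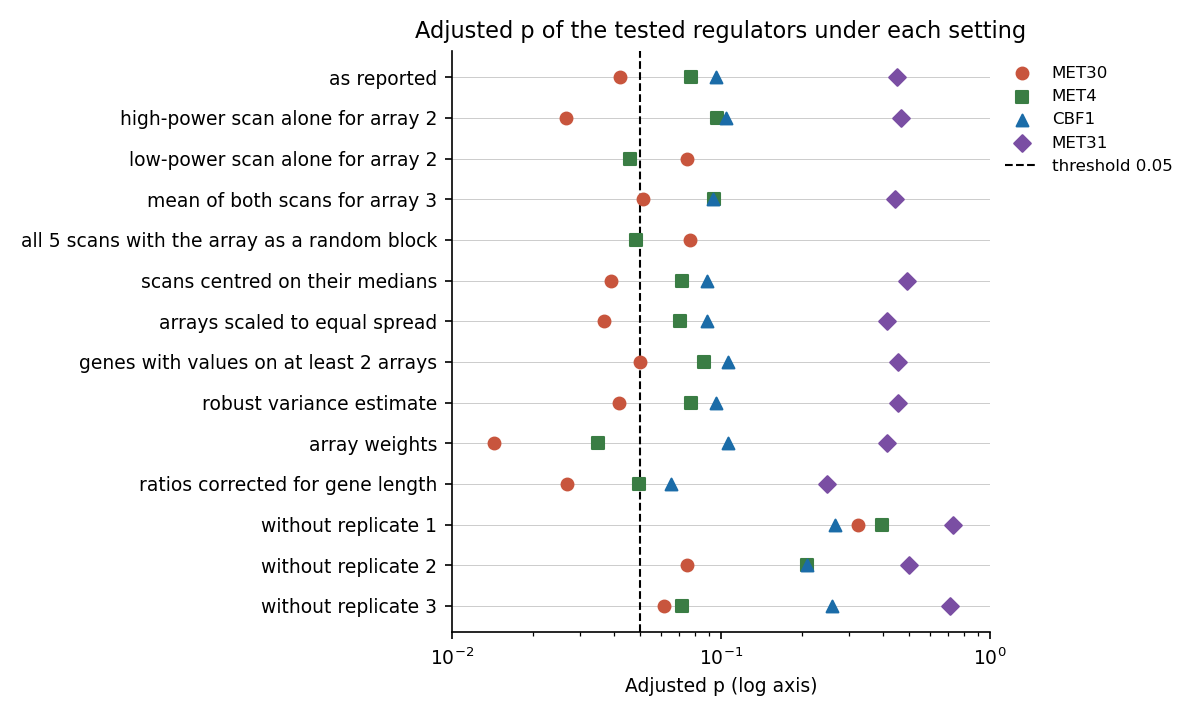
Adjusted p (horizontal axis, logarithmic) of MET30, MET4, CBF1 and MET31 under the reported setting and 13 alternatives, with the threshold of 0.05 as a dashed line. CBF1 and MET31 have no point where array 2 was read at low power only or all 5 scans were used, because the low-power scan of array 2 held no value for them. MET30 and MET4 lie on either side of the line depending on the setting, at 0.0143 to 0.322 and 0.0349 to 0.397, and CBF1 and MET31 stay to its right.

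Ordered by mean, the genes ran MET28, MET32, MET30, MET4, CBF1 and MET31, the first 2 from 2 arrays. From MET28 down to CBF1, no pair next to each other in this order kept the sign of its difference on all shared arrays. MET30 minus MET4 was 0.10 ± 0.18 and MET4 minus CBF1 was 0.03 ± 0.30 (SD, n = 3), differences within their spread. MET31 stood apart from its neighbour in the order, with CBF1 minus MET31 at 0.53 ± 0.23, positive on all 3 arrays, and MET4 minus MET31 at 0.56 ± 0.07. Over the 15 pairs, an exact two-sided sign-flip test cannot give a p below 0.25 with 3 arrays or 0.5 with 2, and the smallest adjusted p was 0.938, so none of these differences could pass.

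**Figure D3:**
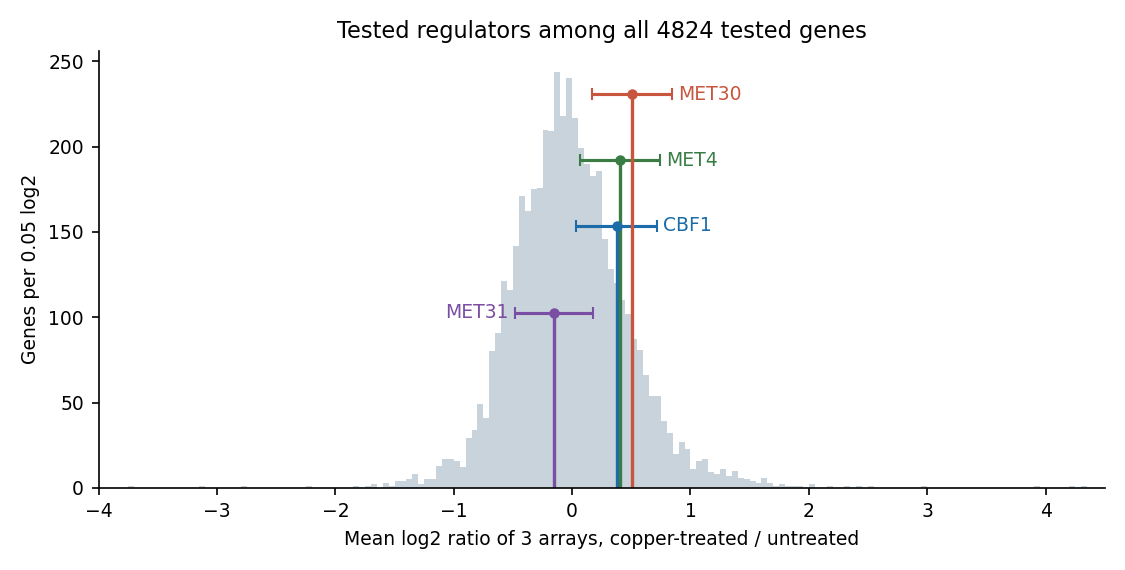
Number of genes per 0.05 of mean log2 ratio (grey bars) over 4824 tested genes, with the means of the 4 tested regulators as vertical lines and their moderated 95% intervals as horizontal bars at arbitrary heights. MET30, MET4 and CBF1 lie to the right of the peak at 0.51, 0.41 and 0.38, within the body of the distribution, and the interval of MET31 spans 0.

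The genes closest to MET30 over the 3 arrays, by root mean square difference of log2 ratio, were AIM11 (0.03), MPH2 (0.04), a maltose permease gene with near-identical copies, so that its reading is uncertain, and ASH1 (0.06), a repressor of mating-type switching in daughter cells. In all, 22 genes lay within 0.1 of MET30. With 3 arrays such likeness is common and is a description only. On the chromosomes, 9 of the 12 protein-coding genes next to the regulators were tested, of which 1 rose and 1 fell, close to the 11.5% and 12% of all tested genes, so these calls are no result about the neighbours. YIR016W, beside MET28, rose by 0.65 ± 0.35 (limma adjusted p = 0.0320, but 0.0922 without replicate 1 and 0.123 without replicate 2). PIG2, a glycogen metabolism gene beside MET30, fell by 0.64 ± 0.48 (limma adjusted p = 0.0495), with -0.28, -1.18 and -0.44 on arrays 1, 2 and 3, and had a mean of -0.36 without replicate 2 (0.194). The PIG2 call was lost in 7 of 11 alternatives, with adjusted p of 0.0502 to 0.0605 in the 6 of those 7 that kept all arrays.

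Among genes that these regulators act on, the highest means were 3.92 for MET17, which forms homocysteine, and 2.55 for MUP1, the methionine permease. MET30 had a mean of 0.51. Over 4 lists of enzymes and transporters with 41 genes, 37 were tested. Of these, 16 rose, 2 fell and 19 did not pass, where 11.5% of all tested genes rose and 12% fell. The median of the 37 genes, 0.45, lay below the mean of MET30 and near the median of 0.39 of the 4 tested regulators. The lists were drawn up with earlier results of these data known, so their direction is not independent evidence. The count past the threshold, 18 of 37 as reported, stayed between 12 and 21 in 13 alternatives. It came to 13 when replicate 1 or replicate 2 was left out and to 20 without replicate 3. The count of 12 came from settings that tested fewer of these genes, 26 with low power only for array 2 and 25 with all 5 scans. In the lists with no call in a direction, the unadjusted limma p added none: 0 genes of sulfate uptake and reduction, of methionine synthesis and of transsulfuration were lower at p under 0.05. The difference in size between regulators and these genes was not tested.

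Sulfate uptake and reduction held 6 rises among 9 tested genes, 0 falls and a median of 0.85, where 11.5% of all tested genes rose and 12% fell. MET3, ATP sulfurylase, which activates sulfate, read 1.46, 1.66 and 1.30 on the 3 arrays, a mean of 1.48 ± 0.18 (limma adjusted p = 0.00152). MET10, a subunit of sulfite reductase, rose by 1.09 ± 0.32, MET16, which reduces activated sulfate, by 0.90 ± 0.45, and MET5, the other sulfite reductase subunit, by 0.90 ± 0.25. Of these, MET16 was not past the threshold without replicate 2 (limma adjusted p = 0.0568, mean 0.80). SUL2, a sulfate permease, was not analysed here.

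Among 12 genes of homocysteine, methionine and S-adenosylmethionine, 3 rose and 0 fell, with a median of 0.36. Over all tested genes, 11.5% rose and 12% fell. MET17, which forms homocysteine from sulfide, read 3.42, 4.67 and 3.68, MET6, methionine synthase, averaged 2.04 ± 0.27, and SAM2, which makes S-adenosylmethionine, 1.34 ± 0.38. In transsulfuration and glutathione synthesis, 1 of 4 tested genes rose, CYS3, which makes cysteine from cystathionine (1.09 ± 0.29), and the list median was 0.14. Beside the same shares over all genes, 1 call among 4 is not a result about this list. STR2 and STR3, the enzymes of the path from cysteine to homocysteine, held a value on array 3 alone, at 0.46 and 0.86.

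Permease and recycling genes moved both ways, with 6 of 12 higher, 2 lower and a median of 0.51, where 11.5% of all tested genes were higher and 12% lower. MUP1, the methionine permease, rose by 2.55 ± 0.09, MMP1, the S-methylmethionine permease, by 1.63 ± 0.14, and MHT1, which uses S-methylmethionine to make methionine, by 1.58 ± 0.85. MHT1 read 2.22, 1.90 and 0.61, so that array 3 was the lowest. The same held for MET16, MET5 and PHO4, and for MET28 and MET32 on the 2 arrays that measured them, so it is not particular to MHT1. IRC7, a lyase that cleaves cysteine, fell by 2.78 ± 0.25. SAM4, which uses S-adenosylmethionine to methylate homocysteine, fell by 0.65 ± 0.29 (limma adjusted p = 0.0266, but 0.109 without replicate 1 and 0.0984 without replicate 2).

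**Figure D4:**
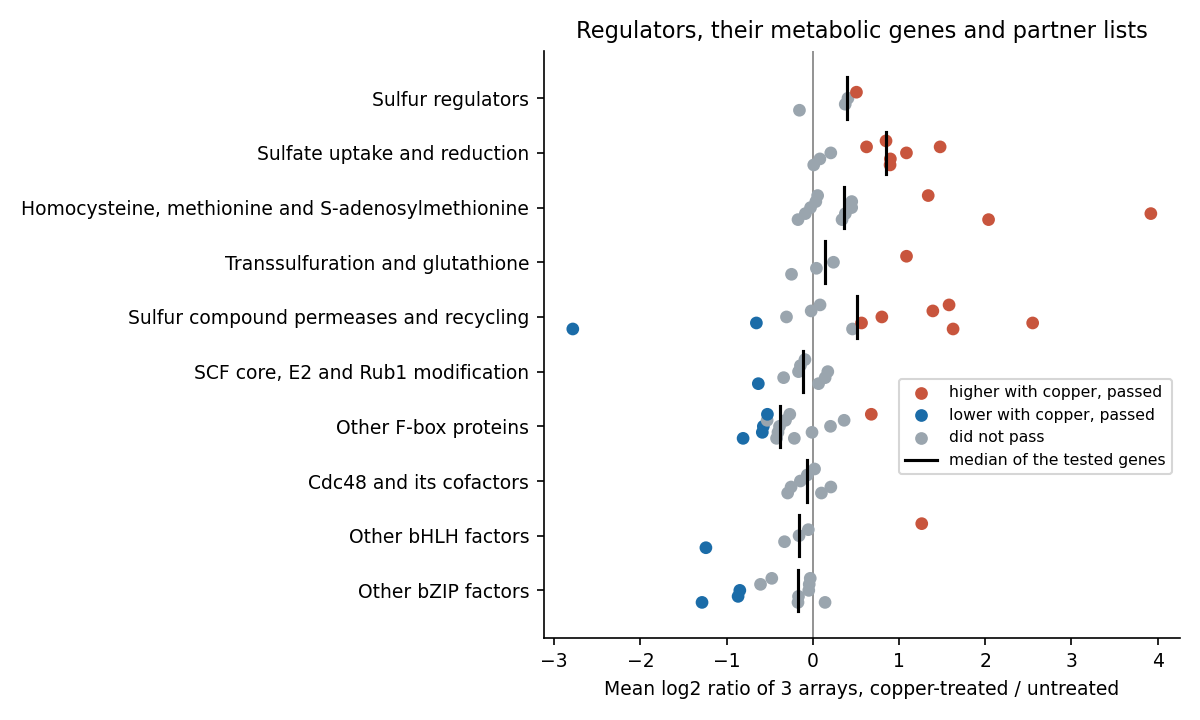
Mean log2 ratio of 3 arrays (horizontal axis) for every tested gene of the regulators, the 4 metabolic lists and 5 lists of partner or related proteins, spread vertically within a list for legibility. Red and blue points passed the threshold upward and downward, grey ones did not, and black bars are medians of the tested genes. Of the 37 points in the metabolic lists, 16 are red, up to 3.92 for MET17, 2 are blue and 19 are grey, and the medians of the partner lists lie between -0.39 and -0.06.

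Met30 works inside the SCF ligase, in which the cullin Cdc53 and the RING protein Hrt1 join the adaptor Skp1 to the ubiquitin-conjugating enzyme Cdc34. Of 8 genes for the core, its conjugating enzyme and its modification by Rub1, all were tested, 0 rose (also 0 at an unadjusted limma p under 0.05) and 1 fell, with a median of -0.12, where 12% of all tested genes fell. CDC34 was the one that fell, by 0.63 ± 0.31, with -0.61, -0.95 and -0.34 on arrays 1, 2 and 3 (limma adjusted p = 0.0306). CDC34 did not pass in limma fits without replicate 1 (adjusted p = 0.0965) or without replicate 2 (0.116, mean -0.48). SKP1, CDC53 and HRT1 had means of 0.14, -0.09 and 0.17, none past the threshold.

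Genes of other F-box proteins, some of which bring other substrates to the same ligase, had a median of -0.39. Of 15 tested genes, 4 fell and 1 rose, where 12% of all tested genes fell and 11.5% rose. HRT3 fell by 0.81 ± 0.33, MFB1, which acts at mitochondria, by 0.59 ± 0.28, and UCC1, which targets the glyoxylate-cycle citrate synthase, by 0.57 ± 0.29. AMN1, which counteracts mitotic exit and was named after its value was seen, fell by 0.53 ± 0.18, and LUG1 rose by 0.68 ± 0.24. The limma adjusted p were 0.0166 for HRT3, 0.0355 for MFB1, 0.0387 for UCC1, 0.0387 for AMN1 and 0.0207 for LUG1. In limma fits without replicate 1, where all genes shared a single variance, none of the 5 passed. The adjusted p were then 0.0905 for HRT3, 0.172 for MFB1, 0.172 for UCC1, 0.289 for AMN1 and 0.0969 for LUG1. MFB1 (0.127), LUG1 (0.0742) and AMN1 (0.0598) did not pass without replicate 2, nor UCC1 (0.113) and AMN1 (0.0695) without replicate 3.

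Cdc48 and its cofactors pull Met30 away from the ligase when cells meet cadmium. None of their 7 genes passed the limma test, 0 had an unadjusted p under 0.05, and the median was -0.06. SHP1, the cofactor used in that step, read -0.41, -0.23 and -0.23 (mean -0.29 ± 0.10, adjusted p = 0.166), and NPL4 averaged -0.25 ± 0.10 (adjusted p = 0.227). CDC48 read -0.05, -0.56 and 0.42, values on either side of 0.

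Relatives of Cbf1 and of the leucine-zipper proteins Met4 and Met28 were listed as well. Of 5 tested helix-loop-helix genes other than CBF1, 1 rose and 1 fell, with a median of -0.16, where 11.5% of all tested genes rose and 12% fell. PHO4, the activator of phosphate genes, which recognises the same core site as Cbf1, read 1.497, 1.514 and 0.78 (mean 1.26 ± 0.42, limma adjusted p = 0.00420). TYE7, an activator of glycolytic genes, fell by 1.24 ± 0.06. Of 11 tested leucine-zipper genes other than MET4 and MET28, 0 rose (also 0 at an unadjusted limma p under 0.05) and 3 fell, with a median of -0.17, beside the same shares over all genes. CIN5 fell by 1.29 ± 0.48, YAP6 by 0.87 ± 0.47 and YAP1, the activator of redox genes, by 0.85 ± 0.16. YAP6 was not past the threshold without replicate 1 (limma adjusted p = 0.102, mean -0.63). GCN4, the activator of amino acid synthesis, read -0.09, -0.17 and -0.24, which did not pass (adjusted p = 0.415).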

How the data were processed

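The values were log2 ratios of a table deposited by the authors, who normalized them by LOWESS, per the labels, on unflagged spots (flag value 0). The base is 2 because the lowest value, -6.64, is the log2 of 0.01. Scan medians lay between -0.025 and -0.0017. The direction is not stated and was taken as the likely one. How background was treated, and with which scanner or image software, is not given in the sources used here.

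The platform annotation gave 1 gene symbol to 5446 of 6912 probes, several to 0 and none to 1466, and all 5446 matched a table of yeast genes (R64). Probes of a gene were averaged. Values were held by 41.3% to 86.1% of spots per scan, and by 6, 4, 2, 6 and 4 of the regulators on the scan of array 1 and the high- and low-power scans of arrays 2 and 3. The number of arrays limits the precision. Of 5379 genes, 555 lacked a value on an array and were not tested. Mean ratios were compared with 0 in R 4.3.3 by limma 3.58.1 (lmFit, then eBayes), tried first on simulated data. Errors after ± are SDs over arrays. Intervals are moderated 95% intervals.

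The regulators and gene lists were chosen with earlier results of these data known. Named genes are all regulators, per list the 4 called members, or fewer, that changed most (2 where none was called), and the 3 genes most like a called regulator. Chromosomal neighbours, AMN1, SAM4, CUP1-1, FRE1, STR2, STR3, SKP1, CDC53, HRT1, CDC48 and GCN4 were named after their values were seen. Alternatives concerned scan joining, centring, scaling, missing values, variance estimate, array weights, gene length (loess, span 0.4, degree 1) and left-out arrays.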

Additional observations from a re-analysis of the deposited data

How the results depend on the processing

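MET31 and CBF1 kept their sign and their side of the threshold in every alternative run for them. MET28 and MET32 also kept their sign. They held only positive values, on arrays 1 and 3 alone, so joining scans or leaving out an array could not turn it. MET28 and MET32 ranged from 0.30 to 1.34 and from 0.31 to 0.85 when an array was left out. MET4, not past the threshold as reported, passed with array 2 at low power only (mean 0.43), all 5 scans with the array as a random block (0.38), array weights (0.44) and the length correction (0.48). MET30 lost its call under the first 2 of these (0.41 and 0.47), with both scans of array 3 averaged (0.48), with genes on at least 2 arrays (0.51), and with any array left out (0.42 to 0.56). The number of regulators called was 0 with array 3 averaged, with genes on at least 2 arrays and without any array, and 2 with array weights and with the length correction. Genes called in all numbered 494 to 1211 when an array was left out, against 1134. In fits without replicate 1 all genes shared a single variance. The low-power settings tested fewer genes (2686, and 2493 with all 5 scans). Other causes were not tested. For 33 other named genes, 359 of 398 values kept sign and call, 39 lost the call and 0 changed sign. These counts leave out SKP1, CDC53, HRT1, CDC48, GCN4, STR2 and STR3, which were not followed over the alternatives. Spots without a value on array 2 limit what can be said of MET28 and MET32. Each ratio already sets treated against untreated cells on the same array, so the reported test against 0 uses that pairing and no further block was fitted in it. Whether the pairing extends to separate control cultures is not stated.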
